A study of Mus musculus with 18 samples.

Results

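Ephrins and their Eph receptors, and semaphorins with their plexin and neuropilin receptors, were followed in cells of 2 mouse lung cancer lines grown in culture and recovered from lung tumors. The members were taken by gene symbol alone, and the set was chosen with earlier results of these data known. They are 53 genes of the 24335 in the EA1 table and of the 24320 in the EA2 table: 5 ephrin-A and 3 ephrin-B ligands, 9 EphA and 5 EphB receptors, 20 semaphorins, 9 plexins and 2 neuropilins. Of the 53, 37 were high enough to be tested in EA1 and 33 in EA2, 31 in both and 14 in neither, the requirement being at least 1 FPKM in at least 5 libraries of EA1 or 3 of EA2. FPKM, the fragments of a gene scaled by its transcript length and by library size, is a level per length, so values can be compared between genes of a library.

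EA1 and EA2 are murine cell lines driven by the Eml4-Alk fusion, EA1 with wild-type p53 and EA2 without p53. The in vitro groups hold 5 libraries of EA1 and 3 of EA2, from cells kept in RPMI-1640 with fetal bovine serum. The in vivo groups hold 5 libraries of each line, from cells injected into the left lung of male C57BL/6 mice, young adults that carry GFP in all tissues and recovered after 3 to 4 weeks by sorting GFP-negative cells, each library being a pool of 3 to 5 mice. The 3 to 4 weeks are those of the labels, and the paper's methods give 4 weeks for both lines. Each condition thus rests on a single cell line, and the sort keeps any host cell that lacks GFP.

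Ephrins are membrane-bound ligands, the A class held by a lipid anchor and the B class by a transmembrane segment, and they bind Eph receptor tyrosine kinases on neighbouring cells, with signals running into both cells. Semaphorins are secreted (class 3), transmembrane (classes 4 to 6) or lipid-anchored (class 7) proteins that bind plexins, and most class 3 members need a neuropilin as co-receptor. Both systems were described first in axon guidance and steer cell repulsion, adhesion and vessel growth in many tissues. EphA2 is abundant in many carcinomas, and the human genes SEMA3B and SEMA3F lie in a chromosome region that is often lost in lung cancer.

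Summed over all genes, FPKM came to 500086 to 517986 per EA1 library in vitro, to 531276 to 569388 per EA1 library in vivo and to 475434 to 484492 per EA2 library in vivo. EA2 in vitro libraries 1 and 3 stood apart from all others, with sums of 733184 and 717905 against 518260 in library 2. The 53 members took 0.0414% and 0.0425% of these sums and 0.115% in library 2, so EA2 results are also given with library 2 as the only in vitro library. In that fit the spread comes from the in vivo libraries, the lone library being assumed to vary like them, and a call can also be lost because 1 library is left. Of the epithelial markers, Krt8 and Cdh1 were high in EA1 in vitro (1486 ± 94.4 and 204 ± 29.6 FPKM, SD, n = 5), whereas Epcam (1.89 ± 0.329), Cldn4 and Cldn7 were low and Nkx2-1 lay at the lowest value of the table. In EA2 in vitro Krt18 was high (691 ± 165, SD, n = 3), Cdh1 was at 6.79 ± 1.09, and Epcam (0.141 ± 0.0589), Cldn4, Cldn7 and Krt7 were near 0. Summed markers of host cells were mostly higher in vivo. In EA1 the summed FPKM of 18 endothelial markers went from 4.86 to 6.33 in vitro to 57.6 to 125.9 in vivo, of 20 leukocyte markers from 1.16 to 1.93 to 110.7 to 215.4, of 16 fibroblast and mural markers from 18.8 to 25.0 to 208.5 to 3027, and of 12 markers of normal lung epithelium from 3.79 to 5.54 to 297.7 to 1154. In EA2 the same sums went from 6.73 to 9.49 to 6.44 to 56.1, from 4.91 to 17.5 to 20.8 to 130.7, from 7.64 to 49.1 to 367.4 to 842.8, and from 2.11 to 5.35 to 21.9 to 185.2. The EA2 in vivo fibroblast sum (mean 587) was mostly Dcn (506 ± 199 FPKM, SD, n = 5). Of the 8 markers of that list tested in EA2, 5 were called higher in vivo and none lower (limma, adjusted p under 0.05). Besides Dcn these were Fbln1 (27.7 ± 13.9 in vivo), Col1a1 (25.8 ± 43.0), Col3a1 (12.4 ± 13.6) and Pdgfrb (4.17 ± 4.51). Lum, Postn and Thy1 of the list averaged no more than 0.146 in EA2 in vivo. In vitro, 4 endothelial and 9 leukocyte markers lay at the lowest value of the table in every EA1 library. In EA2 6 and 10 were at 0.01 FPKM or below in every in vitro library. No marker of these lists was so in vivo. EA1 in vivo library 4 had the highest fibroblast sum (3027) and the lowest carcinoma sum (1673, against 3083 to 4081 in the others). In such bulk samples, fewer cells of a type and less RNA per cell cannot be told apart.

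In culture both lines shared the leading genes of most families. Epha2 made up 92.1% to 95.9% of all EphA FPKM in EA1 in vitro and 90.4% to 95.6% in EA2 in vitro, Ephb4 led the EphB receptors, Plxnb2 the plexins, Nrp2 the neuropilins, Sema3c the class 3 and Sema4b the class 4 semaphorins. In vivo, Epha2, Ephb4, Plxnb2 and the ephrin-B ligand Efnb2 kept the lead in both lines. So did Efna1, Sema3c, Sema5a and Sema6b in EA1 and Sema4b in EA2. Nrp2 kept the lead in EA2 by its mean and in 3 of 5 libraries, whereas some other families had a new leading gene. Nrp1 replaced Nrp2 in all 5 EA1 in vivo libraries, Sema4a replaced Sema4b in 4 of 5, Sema3f replaced Sema3c in 4 of 5 EA2 in vivo libraries and Efna5 overtook Efna1 in 4 of 5. Over all 53 genes, Epha2 had the highest value in every EA1 in vitro library and Sema7a in every EA2 in vivo library. The tables of the lines were made separately, so levels were not tested between EA1 and EA2.

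**Figure D1:**
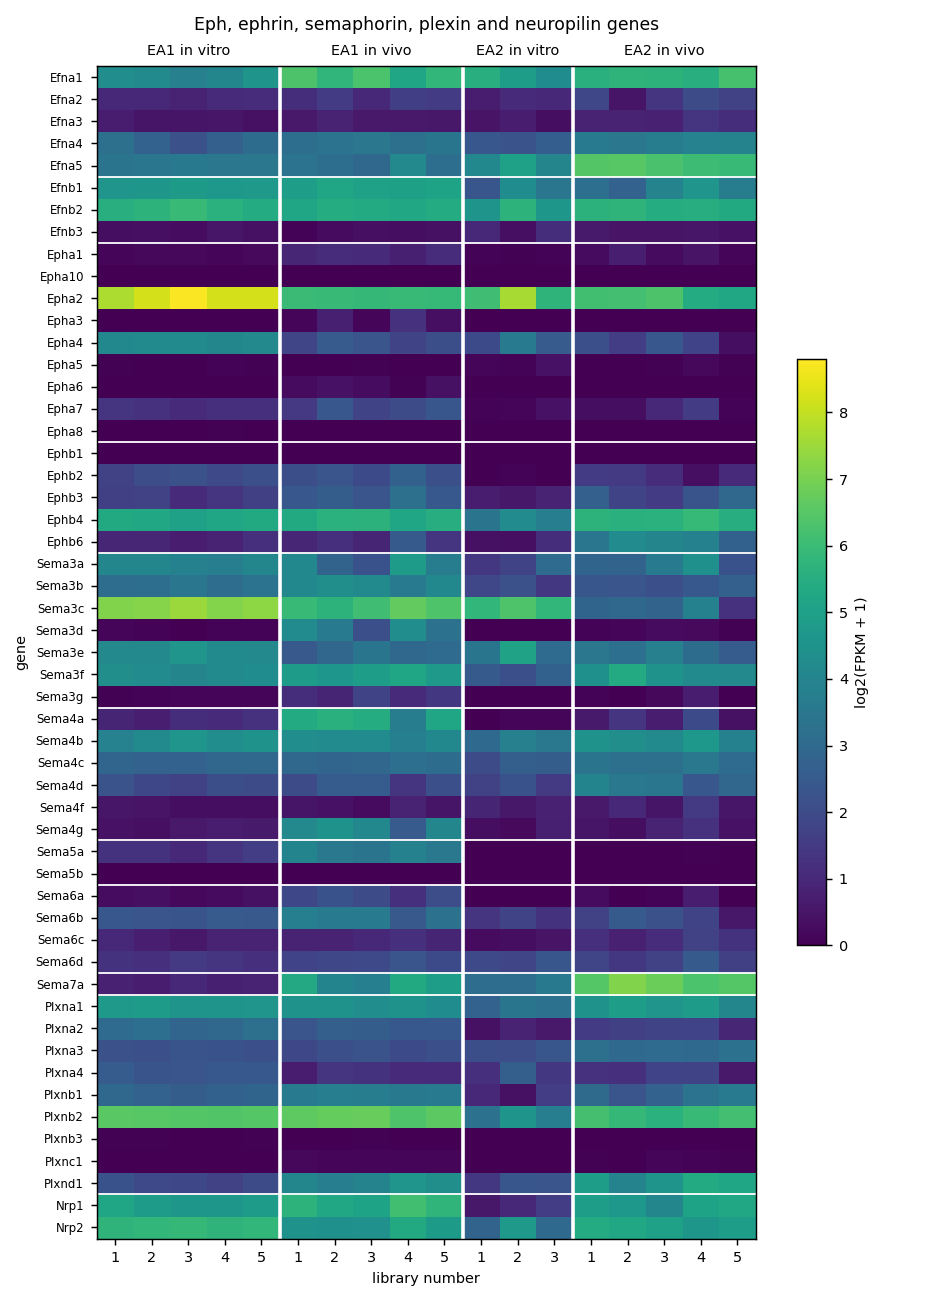
Heat map of log2(FPKM + 1) of the 53 genes (rows, grouped by family between white lines) in the 18 libraries (columns, by group and library number), dark for 0 and yellow for the highest. Epha2 and Sema3c are brightest in EA1 in vitro, Sema7a is bright in EA2 in vivo, and Sema3d, Sema4a, Sema4g and Sema5a are bright in EA1 in vivo and darker in the other groups.

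In EA1, 19 of the 37 tested members were higher in vivo, 9 were lower and 9 passed in neither direction (limma, adjusted p under 0.05). Among all 11212 genes tested in EA1, 30.9% were higher and 40.7% lower. With a change above 1 on the log2(FPKM + 1) scale as well, 9 members were higher and 6 lower, against 12.0% and 7.54% of all genes. The median change of the tested members was 0.36, and that of all genes -0.09. All in vivo libraries lay above all in vitro libraries for 15 tested members and below for 8, which held for 25.3% and 32.5% of all tested genes. Of the 37, 3 semaphorins, Sema3d, Sema4g and Sema6a, stayed below 1 FPKM in every in vitro library and passed the filter only through their in vivo values. Sema4a, Sema7a and Efna2, also called higher, reached 1 FPKM in fewer than 5 in vitro libraries, so they too needed their in vivo values to pass. Without in vivo library 4 the counts were 21 higher and 11 lower.

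In EA2, 22 of the 33 tested members were higher in vivo, 1 was lower and 10 passed in neither direction, against 32.9% higher and 24.4% lower of all 11074 genes tested. A change above 1 was seen for 15 higher members and for 1 lower member, Sema3c, against 19.9% and 15.2% of all genes. The median change was 0.94 among tested members and 0.18 among all genes. All in vivo libraries lay above all in vitro libraries for 20 members and below for 1, against 28.1% and 22.8% of all tested genes. Of the 33, 4 stayed below 1 FPKM in every in vitro library, and all 4 were called higher. Nrp1, Ephb6 and Plxnb1, also called higher, reached 1 FPKM in fewer than 3 in vitro libraries, so they too needed their in vivo values to pass the filter. With in vitro library 2 alone, 14 members were higher, all among the 22, and 3 were lower (Sema3c, Epha2 and Sema3e). Without in vivo library 3, Epha4 was a second lower member (change -1.24, adjusted p = 0.0474). EA2 changes also moved with transcript length: of the genes above the upper quartile of length, 52.8% were higher in vivo and 7.76% lower, and the tested members had a median length of 4482 bases against 3076 for all genes. After each library's trend with length was removed, 18 members were higher and 5 lower. In EA1 these long genes went the other way, with 20.8% higher and 51.3% lower, and removing the trend gave 21 members higher and 6 lower.

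Among the ephrins, Efna1 rose in both lines and Efna5 rose in EA2. Efna1 encodes ephrin-A1, a ligand of EphA2. It was at 18.7, 17.4, 13.1, 15.5 and 22.3 FPKM in EA1 in vitro libraries 1 to 5 and at 80.9, 54.8, 79.1, 34.9 and 55.9 in vivo, so every in vivo library lay above every in vitro one. The change was 1.72 ± 0.22 (SE, adjusted p = 3.32e-05). In EA2 it was at 44.5, 28.7 and 18.6 in vitro and 47.4, 52.0, 51.1, 46.1 and 74.9 in vivo, again without overlap but with in vitro library 1 close below the in vivo range (change 0.87 ± 0.28, adjusted p = 0.0201). This EA2 call was lost with median-of-ratios scaling (change 0.65, adjusted p = 0.0987), with the replicate number as a block and without in vitro library 3.

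Ephrin-A5, encoded by Efna5, had the largest rise among the ephrins in EA2. Efna5 was at 16.1, 31.5 and 15.0 FPKM in EA2 in vitro and at 85.5, 90.5, 76.4, 64.4 and 61.9 in vivo. Every in vivo library lay well above the highest in vitro one, and the change was 1.87 ± 0.26 (adjusted p = 2.62e-04). In EA1 the same gene was at 9.33, 9.87, 10.8, 10.1 and 10.4 in vitro and 9.30, 8.02, 6.89, 16.5 and 8.07 in vivo, where only library 4 was high and the groups overlapped (change -0.10 ± 0.18, adjusted p = 0.621). Efna4, another ephrin-A, was at 4.18, 3.82 and 5.21 in EA2 in vitro and 11.1, 10.2, 11.9, 13.8 and 14.5 in vivo (change 1.30 ± 0.18, adjusted p = 3.07e-04), and rose in EA1 by 0.54 ± 0.17 (adjusted p = 0.0148) with overlapping groups. That EA1 call was lost after removal of the length trend (change 0.35, adjusted p = 0.0825).

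The ephrin-B ligands moved less. Efnb2, the ligand through which EphB4 signals between arteries and veins, was the most abundant of them in every library. It was at 45.9, 50.7, 60.7, 48.7 and 41.8 FPKM in EA1 in vitro and 34.8, 42.2, 40.9, 37.8 and 41.3 in vivo, a fall with overlapping groups (change -0.32 ± 0.09, adjusted p = 0.011) whose call was lost with median-of-ratios scaling (change -0.21, adjusted p = 0.0943) and after removal of the length trend (change -0.17, adjusted p = 0.144). In EA2 it was at 22.6, 50.2 and 24.1 in vitro and 50.0, 51.7, 43.2, 43.2 and 39.9 in vivo, where in vitro library 2 lay within the in vivo range and the test was not passed (change 0.57 ± 0.26, adjusted p = 0.0791). Of the 8 ephrins, 6 were tested in each line: in EA1 4 of them rose and 1 fell, whereas in EA2 3 rose and none fell. Efna3 and Efnb3 passed the filter in neither line, with a highest library value of 1.50 FPKM.

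Epha2, the most abundant receptor of the set in culture, fell in EA1 tumors. This receptor tyrosine kinase was at 208, 300.5, 427, 299.5 and 299 FPKM in EA1 in vitro and at 63.6, 61.0, 57.3, 59.7 and 58.7 in vivo. The in vivo libraries were nearly alike, all of them far below the lowest in vitro library, and the means stood at 307 ± 78.0 and 60.1 ± 2.39 (SD, n = 5 each), a change of -2.30 ± 0.15 (adjusted p = 2.21e-07). In EA2 Epha2 was at 67.4, 199 and 52.2 in vitro and 69.9, 70.7, 79.7, 41.4 and 36.8 in vivo, and the test was not passed (change -0.63 ± 0.42, adjusted p = 0.215). The in vitro libraries differed from one another: library 2 was far above every in vivo library and libraries 1 and 3 lay within the in vivo range. With library 2 alone the change was -1.79 (adjusted p = 0.0218). The 250 bases before the Epha2 start site (chr4:141300971-141301220, plus strand, GRCm38.p6, from RefSeq) are shown because Epha2 had the largest fall of the set in EA1. Capitals mark matches on either strand to motifs bound by CREB and ATF factors (CRE, TGACGTCA) and by TEAD factors (GGAATG).
Epha2: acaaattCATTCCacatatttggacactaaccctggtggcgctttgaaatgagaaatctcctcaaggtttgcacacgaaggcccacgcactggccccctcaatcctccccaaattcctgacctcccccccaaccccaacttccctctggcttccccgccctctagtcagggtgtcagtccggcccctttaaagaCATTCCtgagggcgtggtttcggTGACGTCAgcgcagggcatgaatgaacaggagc
The window holds 1 match to CRE and 2 to TEAD, which do not overlap one another. CRE was found in 1.55% of all 32851 RefSeq promoter windows of this length and in 1 of the 61 windows of 47 member genes that were matched, namely this one. TEAD was found in 12.6% of all windows and in 7 of the 61.

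Epha4, a receptor that binds ephrins of both classes, fell in EA1 as well. It was at 16.1, 17.3, 16.9, 15.4 and 16.5 FPKM in EA1 in vitro and 2.56, 4.77, 4.02, 2.46 and 3.35 in vivo, with no overlap (change -2.00 ± 0.13, adjusted p = 2.85e-07). In EA2 its values were 2.89, 11.0 and 4.78 in vitro and 3.43, 2.03, 4.19, 2.38 and 0.241 in vivo, with overlap (change -1.05 ± 0.47, adjusted p = 0.0751). There it was called lower with median-of-ratios scaling, with quantile normalization, after removal of the length trend and without in vivo library 3. Epha7 was the exception among EphA receptors in EA1, with a rise of 0.78 ± 0.17 (adjusted p = 0.00146). This call was lost with quantile normalization (change 0.35, adjusted p = 0.124). The other 6 EphA receptors were below the filter in both lines. Of these, Epha1, Epha3 and Epha6 had all EA1 in vivo libraries above all in vitro ones, at levels no higher than 1.38 FPKM, and Epha3 was highest in library 4, which also had the highest fibroblast sum.

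Ephb4 and Ephb6 rose in EA2. The other tested EphB receptors there, Ephb2 and Ephb3, also rose but stayed below 1 FPKM in every in vitro library, so their in vivo values alone took them past the filter. Ephb6 also needed its in vivo values to pass. In EA1 1 of 3 tested was higher. Among all genes, 30.9% were higher in EA1 and 32.9% in EA2. Ephb4 was at 9.47, 18.1 and 12.7 FPKM in EA2 in vitro and 51.2, 47.5, 48.1, 58.6 and 44.2 in vivo (change 1.86 ± 0.22, adjusted p = 1.12e-04), and at 40.0, 37.4, 31.7, 35.0 and 39.2 and 39.3, 47.9, 49.5, 34.7 and 44.2 in EA1, where the groups overlapped (change 0.22 ± 0.10, adjusted p = 0.0715).

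Ephb6, an Eph receptor without kinase activity, had the largest EphB change in EA2, from 0.331, 0.272 and 1.23 FPKM in vitro to 10.1, 17.8, 15.1, 13.5 and 5.70 in vivo (change 3.02 ± 0.33, adjusted p = 8.30e-05). In EA1 it was at 0.918, 0.933, 0.648, 0.781 and 1.25 in vitro and 0.923, 1.33, 0.899, 4.58 and 1.59 in vivo, below the filter there, and only library 4 stood out. Ephb3 rose in both lines, from 2.17, 2.33, 1.12, 1.57 and 2.15 to 4.25, 5.11, 3.96, 8.47 and 4.34 in EA1 (change 1.09 ± 0.19, adjusted p = 3.25e-04) and from 0.648, 0.497 and 0.826 to 5.45, 2.51, 1.97, 3.91 and 6.64 in EA2 (change 1.54 ± 0.31, adjusted p = 0.00187). Ephb2 was near 0 in EA2 in vitro (0.0162, 0.0663 and 0.0176) and at 1.87, 1.85, 1.17, 0.291 and 1.11 in vivo, so that it passed the filter only through its in vivo values (change 1.07 ± 0.28, adjusted p = 0.00792). Its call was lost with in vitro library 2 alone (change 1.03, adjusted p = 0.129) and after removal of the length trend (change 0.38, adjusted p = 0.295). Ephb1 was below 0.1 FPKM in all 18 libraries.

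**Figure D2:**
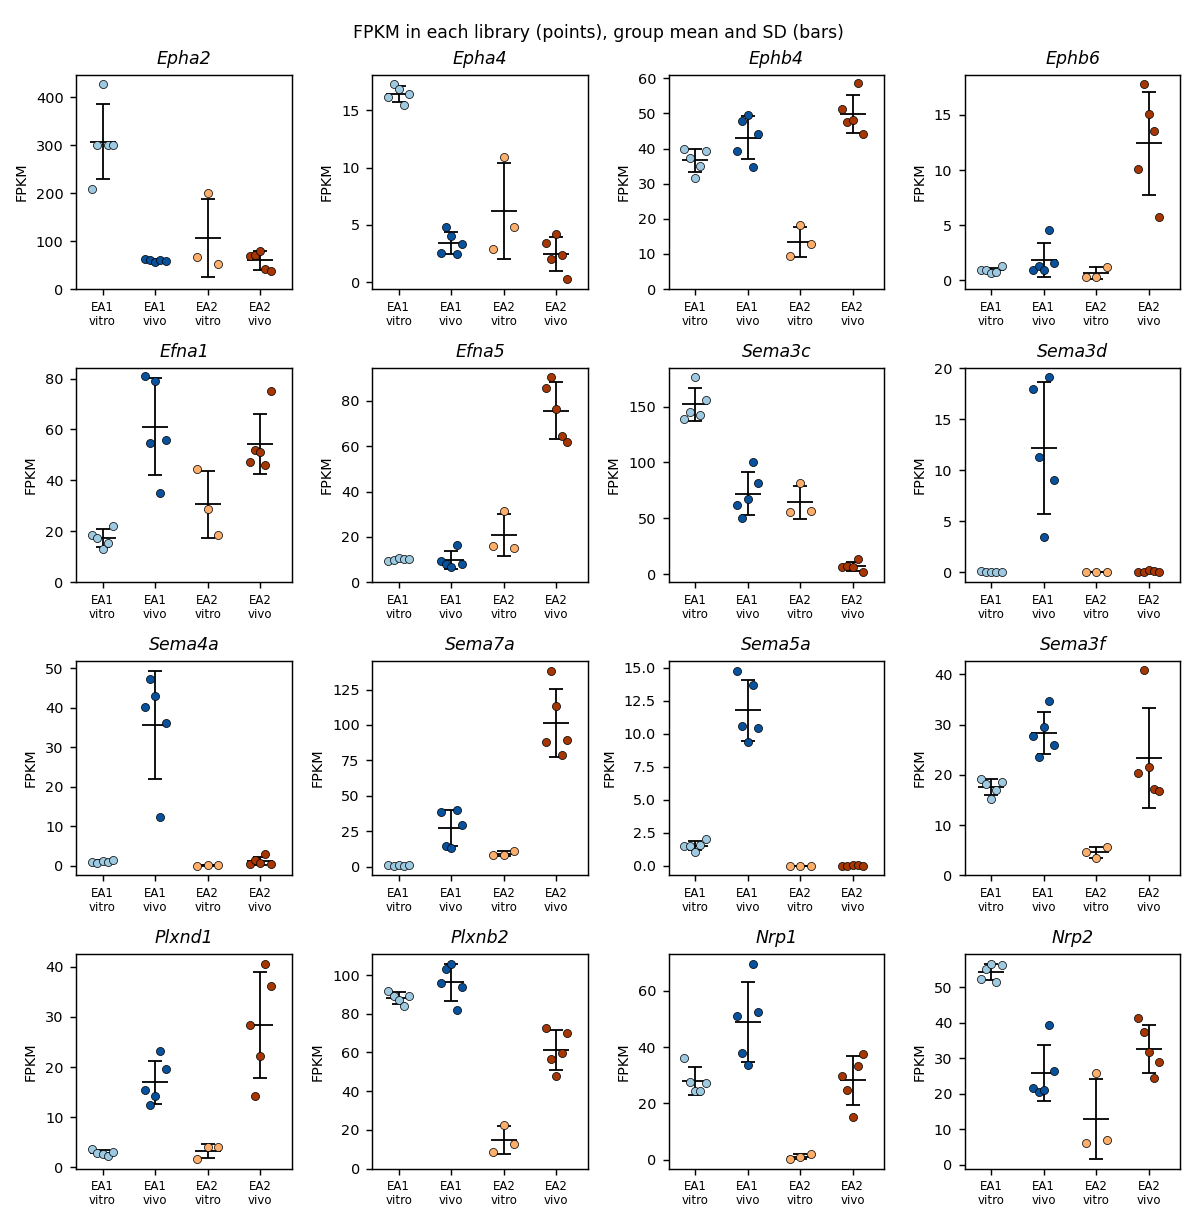
FPKM of 16 members (panels, linear axes of their own) in each library of EA1 and EA2 in vitro and in vivo (points), with bars for the group mean and SD. Epha2, Epha4 and Nrp2 are lower in EA1 in vivo than in vitro without overlap, Sema3c is lower in vivo in both lines, and Sema7a and Plxnd1 are higher in vivo in both.

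Secreted semaphorins changed in opposite directions. Sema3c, a class 3 ligand for both neuropilins, was the only member called lower in both lines as reported. After removal of the length trend, Epha4, Sema3e and Plxna4 were called lower in both as well. With EA2 in vitro library 2 alone, the EA2 change was -1.79 for Epha2 and -1.83 for Sema3e. Sema3c was at 139, 146, 176, 143 and 156 FPKM in EA1 in vitro and 61.7, 50.0, 67.0, 101 and 81.2 in vivo (change -1.10 ± 0.16, adjusted p = 9.27e-05). In EA2 it went from 55.6, 81.6 and 56.2 in vitro to 6.07, 6.93, 5.89, 13.7 and 1.38 in vivo (change -3.26 ± 0.46, adjusted p = 2.75e-04). No library overlapped between conditions in either line, and the EA2 fall held with in vitro library 2 alone (change -3.62, adjusted p = 0.0163).

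Sema3e, which can bind Plxnd1 without a neuropilin, fell in EA1 from 16.6, 16.6, 22.9, 16.9 and 16.6 FPKM to 4.46, 6.43, 9.60, 6.78 and 7.44 (change -1.27 ± 0.16, adjusted p = 3.02e-05). In EA2 it was at 9.61, 32.6 and 7.53 in vitro and 10.2, 8.26, 13.3, 7.65 and 4.84 in vivo and did not pass (change -0.62 ± 0.42, adjusted p = 0.229), though it did with in vitro library 2 alone (change -1.83, adjusted p = 0.0191).

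Sema3f, a ligand of Nrp2, rose in both lines. It was at 19.2, 18.2, 15.2, 17.0 and 18.6 FPKM in EA1 in vitro and 27.8, 23.6, 29.5, 34.8 and 25.9 in vivo (change 0.65 ± 0.10, adjusted p = 1.60e-04), and at 4.68, 3.42 and 5.65 in EA2 in vitro and 20.5, 40.8, 21.7, 17.3 and 16.8 in vivo, where library 2 was highest (change 2.07 ± 0.28, adjusted p = 2.56e-04). Sema3b rose in EA1 by 0.82 ± 0.13 (adjusted p = 2.08e-04), and its rise of 0.57 ± 0.22 in EA2 lay close to the threshold (adjusted p = 0.0456). That EA2 call was lost in 13 alternatives. They included no filter, median-of-ratios scaling, quantile normalization, removal of the length trend and the leaving out of any in vivo library. With in vitro library 2 alone the EA2 change of Sema3b was 0.21. Sema3a ranged widely in EA1 in vivo, from 3.65 to 27.2, and passed in neither line.

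Sema3d appeared in EA1 tumors. It was at 0.121, 0.0741, 0.0209, 0.0717 and 0.0549 FPKM in EA1 in vitro and 17.9, 11.3, 3.47, 19.1 and 9.06 in vivo (change 3.44 ± 0.34, adjusted p = 5.40e-06), and it stayed at or below 0.201 in every EA2 library. From low to high, its EA1 in vivo libraries came in the order 3, 5, 2, 1 and 4, which is also the order of the summed fibroblast and mural markers (208.5, 830.7, 960.0, 1027 and 3027). The part of host cells in its level was not tested. Sema3g, below the filter in both lines, was highest in EA1 in vivo library 3 (2.53), the library with the highest endothelial sum (125.9).

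The transmembrane class 4 semaphorins Sema4a and Sema4g rose in EA1 and were too low to be tested in EA2. Sema4a was at 0.873, 0.688, 1.20, 1.06 and 1.41 FPKM in EA1 in vitro and 40.1, 47.2, 42.9, 12.2 and 36.1 in vivo, a change of 4.05 ± 0.31 (adjusted p = 7.41e-07). It was the largest of any member in EA1 with a pseudocount of 1, whereas with 0.1 Sema3d came first (5.99 against 4.86). Sema4g followed the same pattern across libraries, from 0.353, 0.292, 0.527, 0.612 and 0.561 in vitro to 16.6, 22.0, 16.4, 4.76 and 15.5 in vivo (change 3.32 ± 0.31, adjusted p = 3.09e-06). For both genes, in vivo library 4, with the lowest carcinoma sum, was the lowest of the 5 and still above every in vitro library. In EA2, Sema4a reached 2.97 and Sema4g 1.41 in in vivo library 4. That library had the highest sums of endothelial (56.1), fibroblast (842.8), normal lung epithelium (185.2) and carcinoma markers (774.2). In EA1 in vivo the normal lung epithelium sum was highest in library 3 (1154), and both genes were highest in library 2. Whether host epithelium contributed was not tested.

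In EA2 the class 4 genes that rose were Sema4d, Sema4b and Sema4c. Sema4d, a ligand of Plxnb1, was at 2.32, 3.64 and 1.79 FPKM in EA2 in vitro and 14.7, 10.5, 9.91, 4.30 and 6.43 in vivo (change 1.44 ± 0.33, adjusted p = 0.00395), and at 3.80, 2.76, 2.27, 3.29 and 3.02 and 3.08, 4.83, 4.84, 1.53 and 3.41 in EA1, with overlap (change 0.12 ± 0.21, adjusted p = 0.624). Sema4b, the leading class 4 gene in culture, was at 7.0, 13.4 and 10.5 in EA2 in vitro and 21.5, 19.6, 17.1, 25.1 and 13.5 in vivo (change 0.86 ± 0.25, adjusted p = 0.0125), and at 13.9, 17.1, 22.8, 19.0 and 21.4 and 19.0, 18.0, 18.1, 12.9 and 16.4 in EA1 (change -0.14 ± 0.14, adjusted p = 0.37). With in vitro library 2 alone the changes kept their direction and did not pass, at 1.04 for Sema4d (adjusted p = 0.171), 0.48 for Sema4b (adjusted p = 0.265) and 0.62 for Sema4c (adjusted p = 0.0689).

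Sema7a rose strongly in both lines. This lipid-anchored protein, which binds Plxnc1 and integrins with a beta-1 subunit, was at 0.738, 0.618, 1.00, 0.704 and 0.811 FPKM in EA1 in vitro and 38.5, 14.6, 12.8, 40.1 and 29.3 in vivo (change 3.84 ± 0.30, adjusted p = 7.89e-07). In EA2 it was at 7.81, 7.89 and 10.9 in vitro and 87.9, 138, 113, 78.9 and 89.1 in vivo (change 3.36 ± 0.23, adjusted p = 4.62e-06). The groups did not overlap in either line, and the EA2 change was 3.50 with in vitro library 2 alone (adjusted p = 0.00157). Its receptor Plxnc1 stayed at or below 0.134 FPKM in all 18 libraries. The beta-1 subunit gene Itgb1 was called lower in EA1 (change -0.29 ± 0.09, adjusted p = 0.0163) and did not pass in EA2 (change 0.32 ± 0.29, adjusted p = 0.359). The integrin subunit Itga1, which pairs with beta-1, rose from 2.45 ± 0.719 to 30.3 ± 10.8 in EA1 (SD, n = 5 each, change 3.10 ± 0.29, adjusted p = 3.25e-06) and from 0.956 ± 0.519 (n = 3) to 27.1 ± 14.3 (n = 5) in EA2 (change 3.66 ± 0.48, adjusted p = 2.05e-04). Sema7a in EA1 in vivo was lowest in library 3 and highest in library 4, as was the fibroblast and mural sum (208.5 and 3027). In EA2 in vivo it was lowest in library 4, which had the highest such sum (842.8). The part of host cells in the Sema7a and Itga1 levels was not tested.

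Of the transmembrane classes 5 and 6, Sema5a was at 1.44, 1.45, 1.04, 1.59 and 2.01 FPKM in EA1 in vitro and 14.8, 10.5, 9.37, 13.7 and 10.4 in vivo (change 2.34 ± 0.14, adjusted p = 1.28e-07). It was listed at 0 in 6 of the 8 EA2 libraries and at no more than 0.0414 in the others, and no ratio was formed there. Sema6a, a ligand of plexins of the A class, was at 0.234, 0.275, 0.153, 0.182 and 0.328 in EA1 in vitro and 2.72, 3.70, 3.08, 1.32 and 3.25 in vivo (change 1.59 ± 0.17, adjusted p = 9.07e-06). Sema6b led class 6 in EA1, at 4.26, 4.01, 3.93, 4.80 and 4.52 in vitro and 12.9, 11.7, 11.2, 4.44 and 8.97 in vivo, where only library 4 fell within the in vitro range (change 0.96 ± 0.22, adjusted p = 0.00225). In EA2 Sema6b was at 1.58, 2.46 and 1.45 and 2.28, 4.67, 3.55, 2.5 and 0.485, with overlap (change 0.27 ± 0.38, adjusted p = 0.548). Sema6d led class 6 in EA2 in vitro (2.87, 2.60 and 4.08, then 2.55, 1.66, 2.22, 4.60 and 2.21 in vivo, change -0.23 ± 0.26, adjusted p = 0.46) and rose in EA1 by 0.68 ± 0.11 (adjusted p = 2.29e-04). Sema5b and Sema4f were tested in neither line. Over all 20 semaphorins, 10 of 16 tested rose in EA1 and 2 fell, beside 30.9% and 40.7% of all genes. Of the 10, Sema3d, Sema4g and Sema6a were past the filter by their in vivo values alone. Sema4a and Sema7a also needed their in vivo values to pass. In EA2 7 of 12 rose and 1 fell, beside 32.9% and 24.4% of all genes. Of the 7, Sema6c stayed below 1 FPKM in every in vitro library and passed the filter by its in vivo values alone.

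The neuropilins, co-receptors of class 3 semaphorins and of VEGF, parted in EA1 and rose together in EA2. Nrp1 was at 36.2, 27.7, 24.3, 24.5 and 27.4 FPKM in EA1 in vitro and 50.9, 37.7, 33.5, 69.5 and 52.5 in vivo (change 0.75 ± 0.18, adjusted p = 0.00359), with overlap. Nrp2 fell in EA1 from 52.4, 55.2, 56.5, 51.5 and 56.2 to 21.8, 20.4, 21.0, 39.3 and 26.5, without overlap (change -1.09 ± 0.15, adjusted p = 7.30e-05). Both genes were highest in vivo in library 4.

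In EA2, Nrp1 was nearly absent in culture and had the largest rise of any member. Its in vitro values alone would not have taken it past the filter. Nrp1 was at 0.492, 1.01 and 1.99 FPKM in vitro and 29.8, 24.8, 15.3, 33.5 and 37.4 in vivo, with a wide gap between the groups (change 3.75 ± 0.31, adjusted p = 1.57e-05). The change was 3.80 with in vitro library 2 alone (adjusted p = 0.00273). Nrp1 is also abundant in endothelium. In EA2 in vivo the endothelial markers Cdh5 and Pecam1 averaged 0.670 ± 0.927 and 1.10 ± 1.12 FPKM (SD, n = 5), and Flt1, of the same list, was at 13.3 ± 6.84 and was called higher (change 1.40 ± 0.48, adjusted p = 0.0279). Library 2, with the lowest endothelial sum (6.44) and a fibroblast sum of 805.3, had Nrp1 at 24.8. In that library Col3a1, of the fibroblast list, was at 1.05, within a range of 0.548 to 29.4 over the EA2 in vivo libraries. On average Dcn made up most of the EA2 in vivo fibroblast sum. Dcn, Col1a1, Col3a1, Fbln1 and Pdgfrb were all called higher in EA2. The part of host cells in the Nrp1 level was not tested. Nrp2 was at 6.04, 26.0 and 6.96 in vitro and 41.3, 37.4, 31.8, 24.4 and 28.9 in vivo (change 1.53 ± 0.39, adjusted p = 0.00684). In vitro library 2 lay within the in vivo range, and with it alone the Nrp2 change was 0.30 (adjusted p = 0.442).

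Among the plexins, the receptors of semaphorins, Plxnd1 rose in both lines. It was at 3.67, 2.87, 2.73, 2.32 and 3.06 FPKM in EA1 in vitro and 15.5, 12.4, 14.2, 23.1 and 19.5 in vivo (change 2.17 ± 0.16, adjusted p = 4.91e-07). In EA2 it was at 1.71, 4.06 and 4.00 in vitro and 28.5, 14.2, 22.3, 40.6 and 36.2 in vivo (change 2.76 ± 0.34, adjusted p = 1.51e-04). Neither line had an overlap. Plxnd1 is known from endothelium too. EA2 in vivo library 2, with the lowest endothelial sum, had its lowest value and library 4, with the highest, its highest, whereas in EA1 library 4 had the lowest endothelial sum and the highest Plxnd1. The part of host cells in the Plxnd1 level was not tested. The 250 bases before the start sites of Sema7a (chr9:57939862-57940111, plus strand) and Plxnd1 (chr6:115995006-115995255, minus strand), both from RefSeq on GRCm38.p6, are shown because these 2 genes rose by more than 2 in both lines. Capitals again mark matches.
Sema7a: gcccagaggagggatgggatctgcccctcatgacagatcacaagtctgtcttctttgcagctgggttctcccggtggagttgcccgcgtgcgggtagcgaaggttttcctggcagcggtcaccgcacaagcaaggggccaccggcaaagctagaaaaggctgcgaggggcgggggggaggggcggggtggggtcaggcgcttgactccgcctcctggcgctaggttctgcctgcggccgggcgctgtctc
Plxnd1: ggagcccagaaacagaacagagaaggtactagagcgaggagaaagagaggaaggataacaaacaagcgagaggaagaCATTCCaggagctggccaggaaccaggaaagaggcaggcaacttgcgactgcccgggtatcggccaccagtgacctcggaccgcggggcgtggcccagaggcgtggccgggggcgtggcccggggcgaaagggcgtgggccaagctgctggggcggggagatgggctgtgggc
The Plxnd1 window holds 1 TEAD match and the Sema7a window no match to any of the 6 motifs searched on both strands. Besides CRE and TEAD these were AP-1 (TGANTCA, in 6.75% of all windows and 3 of the 61), HIF (ACGTG, in 16.6% and 11), GAS (TTCNNNGAA, in 7.02% and 2) and the interferon-stimulated response element (in 2.98% and 2). A match describes letters and is not a bound site.

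Plxnb2, the most abundant plexin, rose in EA2 and did not pass the test in EA1. It was at 8.66, 22.7 and 12.5 FPKM in EA2 in vitro and 72.8, 56.7, 47.7, 59.5 and 70.3 in vivo (change 2.08 ± 0.28, adjusted p = 2.24e-04), and at 91.6, 89.4, 86.9, 83.9 and 89.0 and 96.1, 103, 106, 81.9 and 93.7 in EA1, with overlap (change 0.12 ± 0.07, adjusted p = 0.139). Plxnb1, the receptor of Sema4d, rose from 0.998, 0.307 and 2.05 to 7.22, 3.99, 5.85, 9.10 and 11.0 in EA2 (change 2.01 ± 0.33, adjusted p = 6.33e-04) and from 6.91, 5.83, 5.11, 5.61 and 6.13 to 11.2, 12.5, 12.2, 10.8 and 11.6 in EA1 (change 0.87 ± 0.08, adjusted p = 2.17e-06).

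Of the 4 A plexins, which act with neuropilins, 3 fell in EA1 and 3 rose in EA2. Among all genes, 40.7% were lower in EA1 and 32.9% higher in EA2. In EA2 Plxna2 stayed below 1 FPKM in every in vitro library, so its in vivo values alone took it past the filter. Plxna1 was at 26.2, 27.2, 22.3, 22.4 and 23.0 FPKM in EA1 in vitro and 21.3, 21.2, 19.0, 21.2 and 18.4 in vivo (change -0.25 ± 0.07, adjusted p = 0.0111), a small fall whose sign turned when the length trend was removed (change 0.024). In EA2 it went from 5.80, 9.61 and 8.92 to 21.4, 28.6, 22.8, 27.5 and 15.5 (change 1.40 ± 0.24, adjusted p = 7.48e-04). Plxna2 fell in EA1 from 7.47, 8.26, 6.23, 6.71 and 8.43 to 3.96, 5.34, 4.99, 4.39 and 4.40 (change -0.58 ± 0.10, adjusted p = 2.60e-04) and rose in EA2 from 0.325, 0.798 and 0.528 to 1.87, 2.19, 2.51, 2.40 and 0.909 (change 0.92 ± 0.25, adjusted p = 0.00916). Plxna3 was at 3.49, 3.43, 3.88, 3.66 and 3.41 and 2.78, 3.48, 3.74, 2.94 and 3.47 in EA1, and at 3.33, 3.22 and 4.15 and 8.44, 6.98, 7.38, 7.01 and 9.08 in EA2 (change 0.94 ± 0.18, adjusted p = 0.00123). Removing the length trend ended the EA2 calls of Plxna2 (change 0.22, adjusted p = 0.483) and Plxna3 (change 0.42, adjusted p = 0.0691) and the EA1 call of Plxna2 (change -0.28, adjusted p = 0.05, just above the threshold), and with library 2 alone Plxna2 did not pass in EA2 (change 0.69, adjusted p = 0.188). Plxna4 fell in EA1 from 4.86, 3.88, 3.94, 4.41 and 4.43 to 0.596, 1.48, 1.44, 1.06 and 1.07 (change -1.33 ± 0.12, adjusted p = 2.84e-06), the only A plexin whose EA1 fall was still called without the length trend (adjusted p = 7.45e-05), and in EA2 it did not pass (change -0.43 ± 0.37, adjusted p = 0.34). Plxnb3 was below 0.1 FPKM in all libraries.

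**Figure D3:**
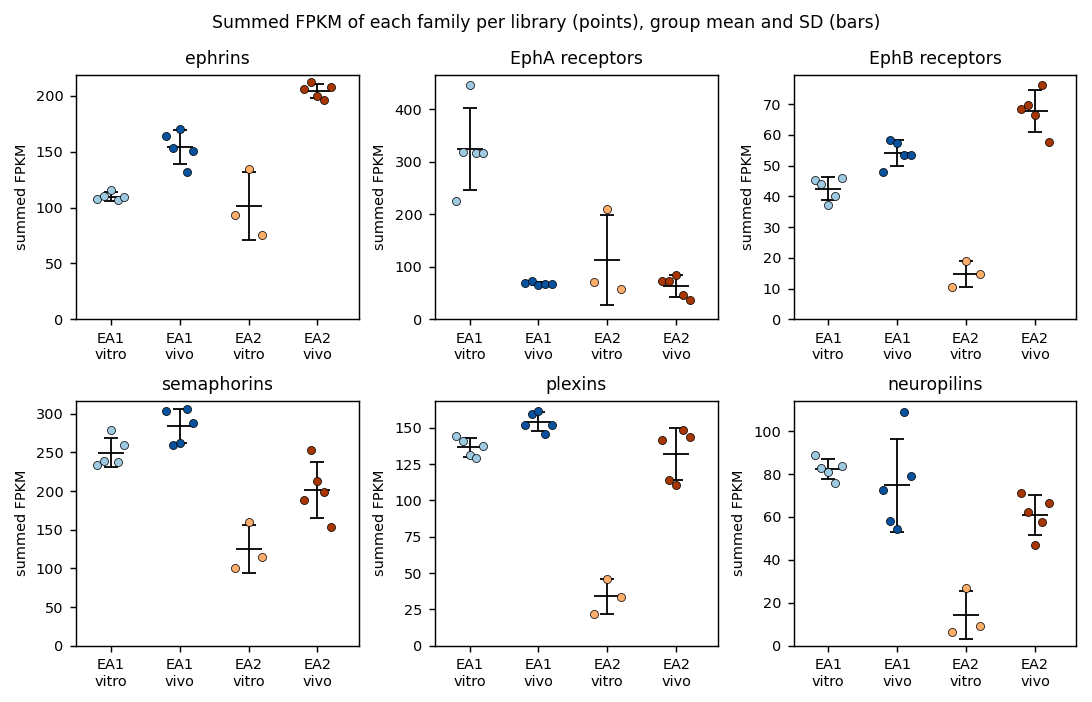
Summed FPKM of the ephrins, EphA receptors, EphB receptors, semaphorins, plexins and neuropilins in each library (points), with bars for the group mean and SD and axes that start at 0. The EphA sum is 225.7 to 444.9 in EA1 in vitro and 65.3 to 72.2 in vivo, and the plexin, EphB and neuropilin sums of EA2 are lowest in vitro.

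The change was next compared between the lines as the EA2 change minus the EA1 change, with signs kept. A positive difference is called a larger change in EA2 and a negative one a smaller change, also for genes that fell. Sema3c, which fell further in EA2 (-3.26) than in EA1 (-1.10), thus counts as smaller. Epha2, with a change of -0.63 in EA2 and -2.30 in EA1, counts as larger. Of 39 members tested in a fit of all 18 libraries, 20 had a larger change in EA2 and 8 a smaller one (limma, adjusted p under 0.05), against 36.3% and 27.1% of all 11930 genes tested. They numbered 11 and 8 after removal of the length trend, and 12 and 6 when library 2 was the single EA2 in vitro library. With a difference above 1 as well, there were 14 and 6, against 21.3% and 17.5%. The receptors Nrp1 (3.00 ± 0.36, adjusted p = 3.96e-06), Nrp2 (2.62 ± 0.42, adjusted p = 5.32e-05) and Ephb6 (2.56 ± 0.44, adjusted p = 1.04e-04) had the largest differences towards EA2 on this scale, given as the EA2 change minus the EA1 change with its SE. Towards EA1 they were Sema3d (-3.31 ± 0.42, adjusted p = 6.60e-06), Sema4a (-3.15 ± 0.48, adjusted p = 3.35e-05) and Sema4g (-3.07 ± 0.43, adjusted p = 1.49e-05). All 6 negative differences beyond 1 were semaphorins, and 10 of the 14 positive ones were receptors, namely both neuropilins, 5 plexins and 3 Eph receptors. Of the members tested within a line, semaphorins were 16 of 37 in EA1 and 12 of 33 in EA2. Tested in each line were 2 neuropilins, 7 plexins and 6 Eph receptors. After removal of the length trend, Plxna2 (0.55), Plxna3 (0.31) and Plxnb1 (0.31) were no longer called. With EA2 in vitro library 2 alone, Epha2 was at 0.51. Sema3d, Sema4a, Sema4g, Sema5a and Sema6a were below the filter in EA2, so their differences also set the lowest values of one table against those of the other.

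Among the 31 members tested in both lines, 9 were higher in both, 1 was lower in both, and 3, Nrp2, Plxna1 and Plxna2, were lower in EA1 and higher in EA2. A further 8 were higher in EA2 and not called in EA1, 4 higher in EA1 and not called in EA2, and 5 lower in EA1 and not called in EA2. None was higher in EA1 and lower in EA2. Epha2 belonged to those lower in EA1 alone. Its difference of 1.66 ± 0.44 (adjusted p = 0.0035) became 0.51 (adjusted p = 0.345) with EA2 in vitro library 2 alone. For Sema7a and Plxnd1 the difference did not pass (-0.48 ± 0.40, adjusted p = 0.295, and 0.59 ± 0.37, adjusted p = 0.178).

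**Figure D4:**
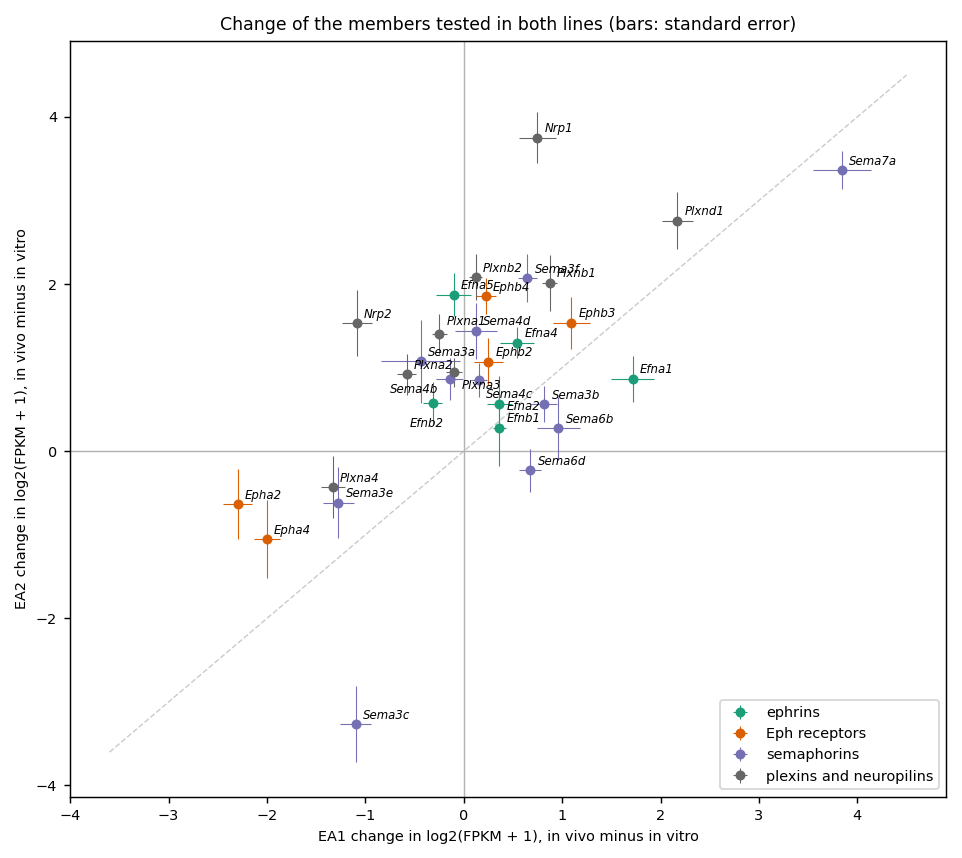
Change in log2(FPKM + 1) from in vitro to in vivo in EA1 (horizontal) and EA2 (vertical) of the 31 members tested in both lines, coloured by family, with bars for the SE and a dashed line of equal change. Sema7a and Plxnd1 lie near the line at the upper right, Sema3c is low in both, Nrp1 and Nrp2 lie far above the line, and Epha2 and Epha4 lie at the lower left.

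Partners and effectors of these receptors (58 genes, chosen from general knowledge) moved in both directions. In EA1, 16 of 45 tested were higher and 13 lower (median change 0.05), beside 30.9% and 40.7% of all genes (median -0.09). In EA2 23 of 44 were higher and 7 lower (median 0.64), beside 32.9% and 24.4% (median 0.18). Rnd1, a small GTPase that binds plexins, fell in both lines, from 13.5 ± 2.12 to 0.852 ± 0.222 FPKM in EA1 (SD, n = 5 each, change -2.96 ± 0.12, adjusted p = 1.58e-08) and from 11.4 ± 3.98 to 0.761 ± 0.263 in EA2 (change -2.79 ± 0.24, adjusted p = 1.87e-05). Itga1 had the largest rise of the list in both on this scale. The remaining largest changes were rises of Grb7, an adaptor of receptor tyrosine kinases (2.77), and of Ngef, an exchange factor that binds EphA receptors (1.81), in EA1, and in EA2 a fall of the GTPase Rras2 (-2.28) and a rise of Mical2, a monooxygenase acting on actin (2.18).

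The other guidance families, netrins, slits and their receptors (28 genes), had few tested members: in EA1 4 of 12 rose and 4 fell, beside 30.9% and 40.7% of all genes, and in EA2 6 of 10 rose and none fell, beside 32.9% and 24.4%. Ntn1 in both lines and Flrt2 in EA1 stayed below 1 FPKM in every in vitro library, so their in vivo values alone took them past the filter. Ntn1, a secreted netrin, went from 0.0638 ± 0.0244 to 10.2 ± 8.29 FPKM in EA1 (change 3.07 ± 0.42, adjusted p = 5.33e-05) and from 0.0368 ± 0.0198 to 45.5 ± 33.4 in EA2 (change 5.17 ± 0.52, adjusted p = 5.41e-05). Slit2, a ligand of Robo receptors, rose by 1.89 and 2.37. Neo1, a netrin and RGM receptor, fell in EA1 by -1.64 and rose in EA2 by 1.37, Flrt2 rose in EA1 (1.66), and Rgmb, an RGM ligand, rose in EA1 (1.12) and in EA2 (1.89).

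**Figure D5:**
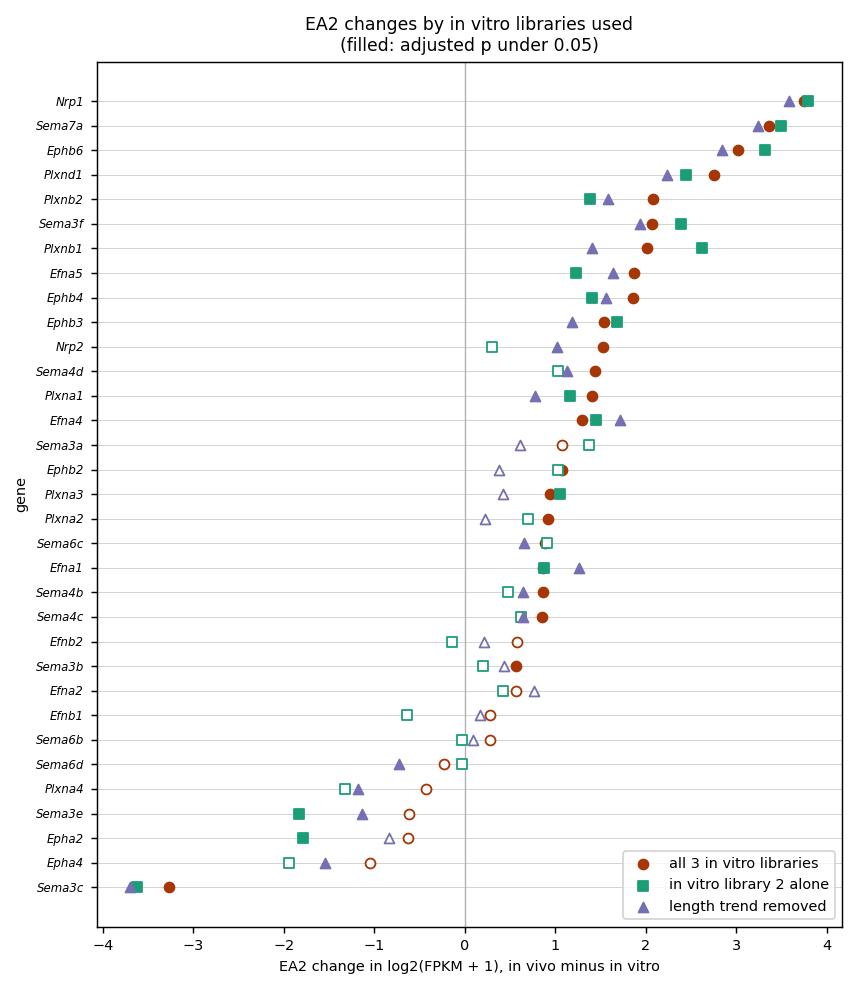
EA2 change in log2(FPKM + 1) of the 33 tested members (rows) with all 3 in vitro libraries (circles), with in vitro library 2 alone (squares) and after the length trend of each library was taken out (triangles), filled where the adjusted p is under 0.05. The largest rises, from Nrp1 to Plxnd1, stay filled under all 3, whereas Nrp2 with library 2 alone falls to 0.30 and Sema3e and Epha2 become filled below 0.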

How the data were processed

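RNA was measured in 18 libraries of EA1 and EA2, whose conditions were taken from the sample labels. The authors deposited 1 FPKM value per gene and library, in a table per line, estimated with Cufflinks (release 2.0.2 in the submitters' processing notes) from poly-A selected, stranded libraries on the mm10 genome. Which annotation release they used was not given in the sources used here. The lowest value is 0.01 in the EA1 table and 0 in the EA2 table. Left out were 6 EA1 entries with a status word and 27 EA2 entries whose name is a date. Depth and counting error are unknown, since FPKM keeps no counts. Nothing says that replicates of a condition in vitro came from separate cultures beyond the labels' word independent, and p-values measure the spread between these libraries.

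Genes with at least 1 FPKM in as many libraries as the smaller group were analysed as log2(FPKM + 1), a scale that understates changes of low genes. Conditions were compared within each line by the two-sided moderated test of limma 3.58.1 with a mean-variance trend (R 4.3.3), and p-values were adjusted by the Benjamini-Hochberg method across all tested genes of the line, and a fit of all 18 libraries tested the difference between the changes. Simulated data with known changes were used to test the fits. Library values are given for members called with a change or difference above 1 and for the most abundant member of each family in each group. Members and lists were chosen with earlier results of these data known. The alternatives were a pseudocount of 0.1, a filter of 5 FPKM or none, scaling by median of ratios, quantile normalization, the replicate number as a block, robust empirical Bayes, each library left out, EA2 in vitro library 2 alone, and subtraction of the length trend of each library (loess, span 0.3, longest transcript per gene in GENCODE). Positions, lengths and promoter windows are of GRCm38. Figures were drawn in Python 3.11.15 with matplotlib 3.10.9.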

Additional observations from a re-analysis of the deposited data

Results flagged for a closer look

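In 6 of 90 groups of 5 libraries examined among the named members, 1 library lay far from the rest on the log2(FPKM + 1) scale, and chance gives about 1 in 20. EA1 in vivo library 4 was the highest for Ephb6 (4.58 FPKM) and the lowest for Sema4a (12.2) and Sema4g (4.76), and it also had the highest fibroblast sum (3027) and the lowest carcinoma sum (1673). In vitro, EA1 library 3 was the highest for Sema3e (22.9). In EA2 in vivo, library 5 was the highest for Efna1 (74.9) and library 2 for Sema3f (40.8).

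The change differed between the lines by more than 1 (limma, difference itself tested, adjusted p under 0.05) for 20 members. The EA2 change minus the EA1 change was 3.00 for Nrp1, 2.62 for Nrp2, 2.56 for Ephb6, 1.98 for Efna5, 1.96 for Plxnb2, 1.66 for Epha2 and 1.65 for Plxna1. It was 1.63 for Ephb4, 1.50 for Plxna2, 1.42 for Sema3f, 1.32 for Sema4d, 1.14 for Plxnb1, 1.04 for Plxna3 and 1.01 for Sema4b. In the other direction it was -3.31 for Sema3d, -3.15 for Sema4a, -3.07 for Sema4g, -2.32 for Sema5a, -2.16 for Sema3c and -1.38 for Sema6a. With EA2 in vitro library 2 alone, Epha2 (0.51), Sema4b (0.62) and Sema4d (0.91) no longer passed. After removal of the length trend, Plxna2 (0.55), Plxna3 (0.31), Plxnb1 (0.31) and Sema4d (0.89) no longer passed.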

How the results depend on the processing

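EA2 in vitro libraries, transcript length and the filter of 5 FPKM bore most on the counts. Members higher in EA1 numbered 11 with the filter of 5 FPKM (25 members tested). Those higher in EA2 numbered 14 with in vitro library 2 alone. Members lower in EA2 numbered 2 with median-of-ratios scaling and with quantile normalization, 5 after removal of the length trend and 3 with library 2 alone. A larger change in EA2 was called for 11 members after removal of the length trend and for 12 with library 2 alone, and a smaller one for 4 with the filter of 5 FPKM. Leaving out each library in turn gave 18 to 21 higher and 9 to 11 lower members in EA1, 20 to 23 and 1 to 2 in EA2, and 19 to 22 larger and 7 to 9 smaller changes in EA2. The sign turned for Efna2 in EA1 with quantile normalization (-0.26) and, after removal of the length trend, for Plxna1 in EA1 (0.024) and for the differences of Ephb2 (-0.11) and Plxna4 (-0.11). Of the remaining values of members called as reported, 94 lost their call and 1532 kept it. Members not called as reported gained a call in 41 of 617 values, from 7 members in EA1, 8 in EA2 and 7 for the difference.

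Over all genes the median change was -0.09 in EA1 and 0.18 in EA2 as reported, and 0.01 and -0.02 with median-of-ratios scaling, which also took the median difference from 0.18 to -0.13. It called 36.2% of all genes higher and 34.4% lower in EA1, 28.6% and 30.1% in EA2, and 27.5% and 35.4% in the difference. With no filter, 4406 genes had a larger and 4616 a smaller change in EA2, and 24 members were higher in EA1.

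Replicate numbers did not pair the samples: same-numbered libraries correlated by -0.131 to 0.0767 in their deviations from the group means, and a library correlated best with its own number in 1 of 5 cases in EA1 and 0 of 3 in EA2. With the number as a block, 19 members were higher and 9 lower in EA1, 21 and 1 in EA2, and 21 had a larger and 8 a smaller change in EA2. FPKM values give no counting error, so how many fragments lie behind members under 1 FPKM is unknown.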
